A study of Mus musculus with 2 samples.

Results

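The semaphorins, plexins and neuropilins were examined in single-cell RNA-seq data of prostate tissue with tumour lesions from 2 transgenic mouse models. Members were chosen by gene symbol, as every feature named as a semaphorin or a plexin plus Nrp1 and Nrp2, which gave 31 of the 28000 features: 20 semaphorins, 9 plexins and 2 neuropilins. The DoubleTg mice (hHGFtg:H11hMET/+:PBCre4) carry a human HGF transgene and a human MET transgene, hMETtg, that stays silent until Cre removes a stop cassette. The TripleTg mice (hHGFtg:H11hMET/+:Ctnnb1L(Ex3)/+:PBCre4) carry in addition a Ctnnb1 allele from which the same Cre removes exon 3, so that β-catenin is stabilised. Cre is driven by a modified probasin promoter and is therefore active mainly in prostate epithelium. Both groups carry both human transgenes and the Cre, on a mixed C57BL/6 and C3H SCID background. The labels call the DoubleTg tissue prostatic adenocarcinoma and the TripleTg tissue prostatic carcinoma, and give no age. The study describes high-grade intraepithelial neoplasia beside cancer in the DoubleTg tissue, and cancer in the TripleTg tissue. There was 1 library per genotype and no control without the transgenes, so no test was possible and every interval below covers counting error only. Genotype, kind of lesion, animal and library cannot be told apart. UMIs of a gene at its 3′ end do not show whether exon 3 was removed, so the Ctnnb1 allele was not checked here, while hMETtg UMIs were found in both libraries.

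Semaphorins are guidance cues, first known from growing axons, that signal to neighbouring cells through plexin receptors. Secreted class 3 semaphorins mostly bind a neuropilin, which holds the ligand while a plexin carries the signal into the cell, whereas the membrane-bound classes bind plexins directly and Sema7a, held by a GPI anchor, binds Plxnc1 and β1 integrins. In tumours the family is known from blood vessel growth, immune cell movement and epithelial adhesion, and neuropilins also serve as co-receptors for VEGF.

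Sequences before the start sites are shown for the 4 members on which the comparisons below turn: Sema7a, whose level followed hMETtg in DoubleTg luminal-like cells, its receptor Plxnc1, and Plxna2 and Sema5a, which were past 2-fold higher in TripleTg in the largest numbers of cell classes. On GRCm38 the Sema7a gene spans chr9:57940112-57962865 on the plus strand, Plxnc1 spans chr10:94790866-94944835 on the minus strand, Plxna2 spans chr1:194618218-194816869 on the plus strand and Sema5a spans chr15:32244810-32696341 on the plus strand. Each sequence is the 250 bases before a RefSeq start site (GRCm38.p6), written 5′ to 3′ on the strand of the gene, with capitals for the GC box core GGGCGG or its reverse CCGCCC. They lie at chr9:57939862-57940111 (+), chr10:94944846-94945095 (−), chr1:194619579-194619828 (+) and chr15:32244563-32244812 (+). The Plxna2 window lies inside the gene span given above, downstream of its start, and the Sema5a window runs just past the start of its span.
Sema7a: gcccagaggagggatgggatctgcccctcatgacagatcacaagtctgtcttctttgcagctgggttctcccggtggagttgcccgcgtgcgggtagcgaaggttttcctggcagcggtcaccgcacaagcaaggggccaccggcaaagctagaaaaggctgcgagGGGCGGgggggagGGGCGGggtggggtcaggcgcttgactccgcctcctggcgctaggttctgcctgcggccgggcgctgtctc
Plxnc1: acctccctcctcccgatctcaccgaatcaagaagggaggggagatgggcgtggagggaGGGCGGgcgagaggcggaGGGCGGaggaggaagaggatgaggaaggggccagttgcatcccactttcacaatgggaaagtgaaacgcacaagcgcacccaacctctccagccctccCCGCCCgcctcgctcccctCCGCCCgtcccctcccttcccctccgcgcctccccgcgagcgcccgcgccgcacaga
Plxna2: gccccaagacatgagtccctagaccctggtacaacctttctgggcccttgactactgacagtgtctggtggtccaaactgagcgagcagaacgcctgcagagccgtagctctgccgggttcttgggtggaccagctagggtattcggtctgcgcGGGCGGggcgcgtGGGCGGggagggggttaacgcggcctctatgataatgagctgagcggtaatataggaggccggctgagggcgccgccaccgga
Sema5a: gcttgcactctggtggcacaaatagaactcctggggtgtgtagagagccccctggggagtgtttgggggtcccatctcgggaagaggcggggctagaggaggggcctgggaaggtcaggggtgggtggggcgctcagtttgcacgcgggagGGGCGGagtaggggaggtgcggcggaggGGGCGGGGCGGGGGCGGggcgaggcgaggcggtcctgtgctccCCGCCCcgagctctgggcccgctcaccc

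The GC box core, counted on both strands with overlapping matches allowed, occurred 2 times in the Sema7a sequence, 4 times in that of Plxnc1, 2 times in that of Plxna2 and 5 times in that of Sema5a. The TCF/LEF core CTTTGA (reverse TCAAAG), the letters that the DNA-binding partners of β-catenin are known to read, occurred in none of these 4 windows. The RefSeq table held 37 promoters for 26 of the 31 members. GGGCGG was in 27 of the 37 (73.0%), against 32.7% of all 32851 promoters, and CTTTGA was in 2 of the 37 (5.41%), those of Nrp2 and Sema3e, against 13.8% of all. The member promoters had a median GC content of 64%, against 52.4% over all promoters. These matches describe the letters of each window and nothing about binding.

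The DoubleTg library held 12072 cells, of which 10598 passed the limits on genes and mitochondrial UMIs, and all 9492 TripleTg cells passed them, with a median of 16761 and 20097 UMIs per cell. The libraries shared 29 barcodes among the kept cells. Each library was clustered on its own without the 31 members, and clusters were named from marker lists, so that a class here may not hold the same cells as a class of that name in the study. Luminal-like cells numbered 4997 in DoubleTg and 4777 in TripleTg, basal-like cells 1885 and 1182, seminal vesicle-like cells 127 and 586, fibroblast-like cells 941 and 632, smooth muscle-like cells 77 and 103, endothelial-like cells 276 and 243, and macrophage-like cells 275 and 434. The 8 TripleTg luminal-like clusters each had 5 of the 12 luminal markers in at least 0.5 of their cells, fewer than the 8 to 11 in the DoubleTg clusters. The 7 epithelial markers summed to 15064 CPM in the 150 TripleTg neutrophil-like cells, close to the 18544 CPM of luminal-like cells, and levels in that class are not read. Levels are given as CPM, the UMIs of a gene divided by all UMIs of its class and multiplied by 1e+06, and because 3′ UMIs were counted without length they are compared between classes for 1 gene and not between genes.

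Endothelial-like cells held the highest level of more members than any other class. A member counted as detected in a class with at least 5 CPM and at least 10 UMIs. By this rule 26 members were detected in at least 1 DoubleTg class and 25 in at least 1 TripleTg class, 23 of them in both, while Plxna3, Sema6c and Sema4g were detected in no class of either library. The class with the highest level was endothelial-like for 13 of the 26 in DoubleTg and 11 of the 25 in TripleTg. In luminal-like cells, 7 semaphorins, 3 plexins and 1 neuropilin were detected in DoubleTg and 9 semaphorins, 3 plexins and no neuropilin in TripleTg. Of the 23 members detected in both libraries, 18 had the same class at the top, and the other 5 were Sema4c, Sema6d, Sema3d, Plxna1 and Plxnc1. None of the counts in this paragraph was made over all genes, so they describe the members without a background beside them.

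**Figure D1:**
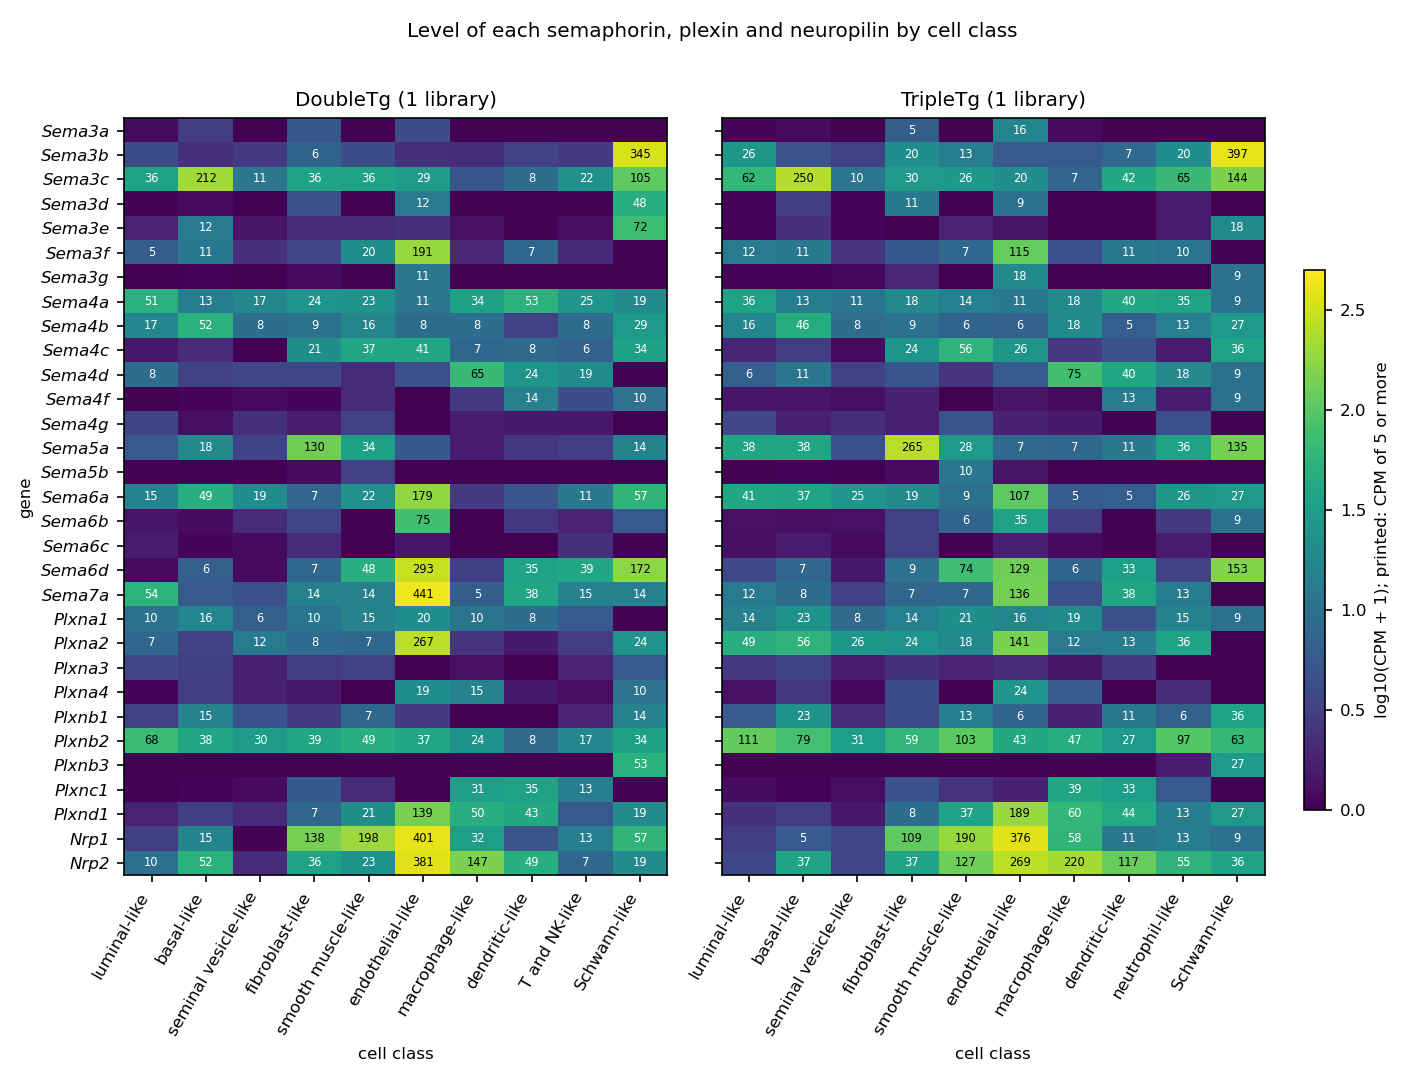
Level of each member (rows) in each cell class (columns) of the DoubleTg and TripleTg libraries, coloured by log10(CPM + 1), with the CPM printed where it is 5 or more. The endothelial-like column holds the highest value of 13 members in DoubleTg and 11 in TripleTg, and the highest Plxnc1 values lie in the macrophage-like and dendritic-like columns.

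Among the secreted semaphorins, Sema3c, a ligand of neuropilins known from heart and vessel development, was a gene of basal-like cells, with 212 CPM (207–218) in DoubleTg and 250 CPM (244–256) in TripleTg, against 35.7 and 62.2 CPM in luminal-like cells. Sema3f, which prefers Nrp2, was highest in endothelial-like cells, at 191 CPM (173–210) and 115 CPM (102–129), and reached 5.32 and 11.5 CPM in luminal-like cells. Sema3b was highest in the small Schwann-like class of 39 and 25 cells, at 345 CPM (270–434) and 397 CPM (288–533). The main source class thus differed between these secreted ligands. Sema3g stood at 10.8 and 18.2 CPM in endothelial-like cells, the class in which it is best known. Sema3a, the collapsin that gave the family its role in growth cone collapse, passed the detection rule in TripleTg only, at 16.2 CPM in endothelial-like cells against 3.15 CPM in DoubleTg and at 5.28 CPM in fibroblast-like cells against 4.45 CPM. Below that rule it had more UMIs in DoubleTg, 52 against 6 in basal-like and 47 against 8 in luminal-like cells. Sema3e, the class 3 member that binds Plxnd1 without a neuropilin, had 12.01 CPM in DoubleTg basal-like cells and 71.8 CPM from 15 UMIs in the Schwann-like cells, and was not detected in any TripleTg class. Sema3d was at 47.9 CPM from 10 UMIs in DoubleTg Schwann-like cells, at 11.7 and 8.89 CPM in endothelial-like cells and at 3.71 and 11.3 CPM in fibroblast-like cells.

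The class 4 semaphorins, membrane proteins with an immunoglobulin domain, had their highest levels in immune, basal-like, endothelial-like or smooth muscle-like cells. Sema4d, which binds Plxnb1 and is known from lymphoid and myeloid cells, was highest in macrophage-like cells, at 65.0 CPM (56.5–74.5) in DoubleTg and 74.6 CPM (67.4–82.4) in TripleTg. Sema4a, known for T cell priming, was at 53.3 and 40.1 CPM in dendritic-like cells and at 50.8 and 35.5 CPM in luminal-like cells, and the intervals of these classes overlapped in each library. Sema4b was highest in basal-like cells, at 52.1 and 46.1 CPM, which overlapped with the Schwann-like levels of 28.7 CPM (10.5–62.5) and 27.1 CPM (5.58–79.1). Sema4c, a ligand of Plxnb2, was at 40.9 and 25.9 CPM in endothelial-like cells and at 37.3 and 56.1 CPM in smooth muscle-like cells, with overlapping intervals for these classes in DoubleTg. Sema4f passed the detection rule in DoubleTg dendritic-like cells alone, at 14.1 CPM.

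Of the class 5 and class 6 members, which are also membrane proteins, Sema5a was a gene of fibroblast-like cells, at 130 CPM (123–138) in DoubleTg and 265 CPM (252–279) in TripleTg, and its relative Sema5b was detected in TripleTg smooth muscle-like cells alone, at 10.4 CPM. Sema6a, a ligand of Plxna2 and Plxna4, was highest in endothelial-like cells, at 179 CPM (162–198) and 107 CPM (94.4–120). Sema6b was seen above the detection limit only in endothelial-like cells, at 74.7 and 35.2 CPM. Sema6d, a ligand of Plxna1, led in DoubleTg endothelial-like cells at 293 CPM (271–317), above the 172 CPM (121–239) of Schwann-like cells, whereas in TripleTg the 153 CPM (89.3–245) of Schwann-like cells overlapped with the 129 CPM (115–143) of endothelial-like cells.

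Both neuropilins were highest in endothelial-like cells. Nrp1, a co-receptor of class 3 semaphorins and of VEGF, stood at 401 CPM (375–429) in DoubleTg and 376 CPM (353–400) in TripleTg, followed by smooth muscle-like cells at 198 CPM (170–230) and 190 CPM (167–216) and fibroblast-like cells at 138 CPM (131–146) and 109 CPM (100–118), and no neighbours in this order overlapped. Nrp2, known from lymphatic vessels, stood at 381 CPM (355–407) and 269 CPM (249–289) in endothelial-like cells and at 147 CPM (134–161) and 220 CPM (207–233) in macrophage-like cells. In luminal-like cells Nrp2 was at 9.53 and 2.86 CPM.

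Among the plexins, Plxnd1, the plexin best known from vascular patterning, was highest in endothelial-like cells, at 139 CPM (124–155) in DoubleTg and 189 CPM (173–207) in TripleTg, with macrophage-like cells next at 49.6 and 59.97 CPM. Plxnb2, a receptor of class 4 semaphorins, was the member whose highest class was luminal-like in both libraries, at 67.7 and 111 CPM, and in TripleTg the smooth muscle-like level of 103 CPM overlapped with it. Plxna2, which pairs with neuropilins and also binds Sema6a, was at 267 CPM (246–289) and 141 CPM (127–156) in endothelial-like cells. Plxna4 was at 19.3 and 24.3 CPM in endothelial-like cells and at 14.9 and 4.95 CPM in macrophage-like cells. The remaining plexins had other main classes. Plxnb1, the receptor of Sema4d, was highest in basal-like cells among the classes that passed the detection rule, at 14.7 and 22.8 CPM, and these overlapped with the Schwann-like levels of 14.4 CPM (2.96–42.0) from 3 UMIs and 36.1 CPM (9.83–92.4) from 4 UMIs. Plxnb3 rested on 11 UMIs of DoubleTg Schwann-like cells, at 52.6 CPM. Plxna1, a receptor of Sema6d and, with neuropilins, of class 3 semaphorins, was detected in 8 classes of DoubleTg and, leaving out neutrophil-like cells, 7 of TripleTg, from 5.54 to 19.8 CPM in DoubleTg and from 7.62 to 23.5 CPM in TripleTg, and the intervals of its highest class and the next overlapped.

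Several members were also detected well outside their highest class. Plxnb2 was at 37.8 and 78.9 CPM and Sema6a at 49.2 and 37.2 CPM in basal-like cells. Sema6d was at 47.8 and 73.8 CPM in smooth muscle-like cells, and at 39.4 CPM in the T and NK-like cells that were named in DoubleTg. In dendritic-like cells Nrp2 was at 49.2 and 117 CPM and Plxnd1 at 42.8 and 43.8 CPM. Receptors of the family were thus present in immune classes of both libraries. Sema3c, the basal-like ligand, was at 36.2 and 30.3 CPM in fibroblast-like cells, and Sema4a at 34.4 and 18.1 CPM in macrophage-like cells.

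Sema7a and its receptor Plxnc1 had different main classes, and both passed the detection rule in dendritic-like cells of both libraries and, in DoubleTg, in T and NK-like cells and macrophage-like cells, where Sema7a was at 5.27 CPM from 17 UMIs. The 7 epithelial markers summed to 5416 CPM in the T and NK-like cells, 777 CPM in the DoubleTg macrophage-like cells and 1577 and 2627 CPM in dendritic-like cells, against 19004 and 18544 CPM in luminal-like cells, and their part in these Sema7a levels was not tested. Sema7a was highest in endothelial-like cells, at 441 CPM (414–470) in DoubleTg and 136 CPM (123–151) in TripleTg. In DoubleTg the next levels were 54.3 CPM (53.3–55.3) in luminal-like cells and 37.5 CPM (28.9–47.9) in dendritic-like cells, which do not overlap, and then 14.9 CPM (11.3–19.4) in T and NK-like cells, 14.4 CPM (12.1–17.1) in fibroblast-like cells and 14.0 CPM (7.23–24.4) in smooth muscle-like cells, which overlap. The smooth muscle-like level rested on 12 UMIs in 3 of 77 cells. The 7 epithelial markers summed to 4202 CPM in DoubleTg fibroblast-like and 6198 CPM in DoubleTg smooth muscle-like cells. Their part in these Sema7a levels was not tested either. In TripleTg the dendritic-like level of 38.3 CPM (23.7–58.5) came second, and luminal-like cells stood at 11.98 CPM (11.4–12.6). Plxnc1 was at 34.6 CPM (26.3–44.6) and 32.8 CPM (19.5–51.9) in dendritic-like cells and at 31.0 CPM (25.2–37.7) and 38.8 CPM (33.7–44.5) in macrophage-like cells, which overlap within each library. In luminal-like cells Plxnc1 was at 0.0405 CPM in DoubleTg, from 8 UMIs, and at 0.233 CPM in TripleTg. A Sema7a UMI was found in 54.6% of DoubleTg luminal-like cells and 24.9% of TripleTg ones, at a median of 35576 and 25646 UMIs per cell. The same share was 5.45% and 3.92% in macrophage-like cells, at a median of 10324 and 10034 UMIs, and 7.87% and 8.36% in seminal vesicle-like cells, at a median of 37693 and 40130 UMIs. With every cell thinned to 5000 UMIs, leaving out 182 and 149 shallower luminal-like cells, the luminal-like shares were 20.6% and 5.25%, against 3.03% and 2.67% in macrophage-like cells.

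Within DoubleTg luminal-like cells, Sema7a was higher in cells with a UMI of the human MET transgene. This gene was picked for the comparison with its pattern known, so the values are a description. The 4176 hMETtg-positive cells held 10501 Sema7a UMIs, 60.8 CPM (59.6–62.0), and the 821 hMETtg-negative cells held 233, 9.31 CPM (8.16–10.6), a log2 ratio of 2.71 (2.52–2.90). A Sema7a UMI was found in 62.0% (60.5–63.5) of positive and 16.8% (14.3–19.6) of negative cells. Positive cells were also deeper, with a median of 37131 UMIs against 24863. With each cell thinned to 5000 UMIs and hMETtg called again on the thinned counts, the levels were 71.5 and 26.7 CPM, the shares 25.5% (24.0–27.0) and 10.3% (8.81–11.9), and the log2 ratio 1.42 (1.21–1.64). Some thinned cells without an hMETtg UMI had one before thinning, so the negative group is not the same at both depths.

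The Sema7a level followed the number of hMETtg UMIs at equal depth. In thinned DoubleTg luminal-like cells it was 26.7 CPM with 0 hMETtg UMIs, 51.8 with 1, 61.6 with 2, 76.4 with 3 to 5, 87.2 with 6 to 10 and 131 (100–167) with over 10, in 1536, 757, 614, 1210, 603 and 95 cells. Across the same bins the share of cells with a Sema7a UMI went from 10.3% through 19.7%, 21.5%, 27.1% and 31.2% to 40.0%. In TripleTg luminal-like cells at the same depth, Sema7a was at 13.9 CPM (9.65–19.5, 34 UMIs) in positive and 10.7 CPM (9.32–12.2) in negative cells. The log2 ratio was 0.38, with an interval (−0.18 to 0.91) that includes 0. By bin it was 13.6 CPM (9.03–19.6) with 1 hMETtg UMI and 20.7 CPM (7.59–45.0) from 6 UMIs with 2. The 18 cells with 3 to 5 hMETtg UMIs held no Sema7a UMI, with an upper limit of 41.0 CPM. With all UMIs of these TripleTg cells, in which hMETtg stood at 26.3 CPM against 493 CPM in DoubleTg, the 1645 positive cells had 14.7 CPM and the 3132 negative cells 9.90 CPM of Sema7a, a log2 ratio of 0.57 (0.43–0.71), at a median depth of 33882 against 22801 UMIs. The direction was the same in several other DoubleTg classes. Sema7a was at 31.1 CPM (24.9–38.3) in hMETtg-positive and 7.27 CPM (5.36–9.64) in hMETtg-negative fibroblast-like cells. In seminal vesicle-like cells it was at 7.79 CPM from 18 UMIs and 0.683 CPM from 2 UMIs. Positive cells were deeper, with a median of 14339 against 7129 UMIs in fibroblast-like and 54782.5 against 27037 in seminal vesicle-like cells. At 5000 UMIs the fibroblast-like levels were 31.8 CPM (17.4–53.4) and 8.26 CPM (5.17–12.5). At that depth the 17 positive and 72 negative seminal vesicle-like cells held no Sema7a UMI. The DoubleTg basal-like clusters differed, with 15.7 and 3.22 CPM in the one led by Krt15, a log2 ratio of 2.29 (1.48 to 3.13), and 3.39 and 4.23 CPM in the one led by Lgals7, −0.32 (−1.40 to 0.62). In the T and NK-like cells it was at 37.3 CPM from 46 UMIs and 3.97 CPM from 10 UMIs, a log2 ratio of 3.23 (2.23 to 4.39), in a class whose epithelial markers summed to 5416 CPM and whose hMETtg level was 148 CPM, against 19004 and 493 CPM in luminal-like cells. Higher Sema7a beside an hMETtg UMI was thus also seen outside luminal-like cells, and the part of luminal RNA in these droplets was not tested. In DoubleTg endothelial-like cells, 15.2% of which had an hMETtg UMI, Sema7a stood at 308 CPM in those cells and at 504 CPM (469–541) in the rest, and the 7 epithelial markers summed to 3854 CPM in that class, whose part in these values was not tested. The summed level of the 7 endothelial markers was 4.4 CPM in the hMETtg-positive DoubleTg luminal-like cells and 4.9 CPM in the hMETtg-negative ones. The 7 basal markers summed to 387 CPM in the positive and 757 CPM in the negative cells, and their part in the Sema7a ratio was not tested.

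**Figure D2:**
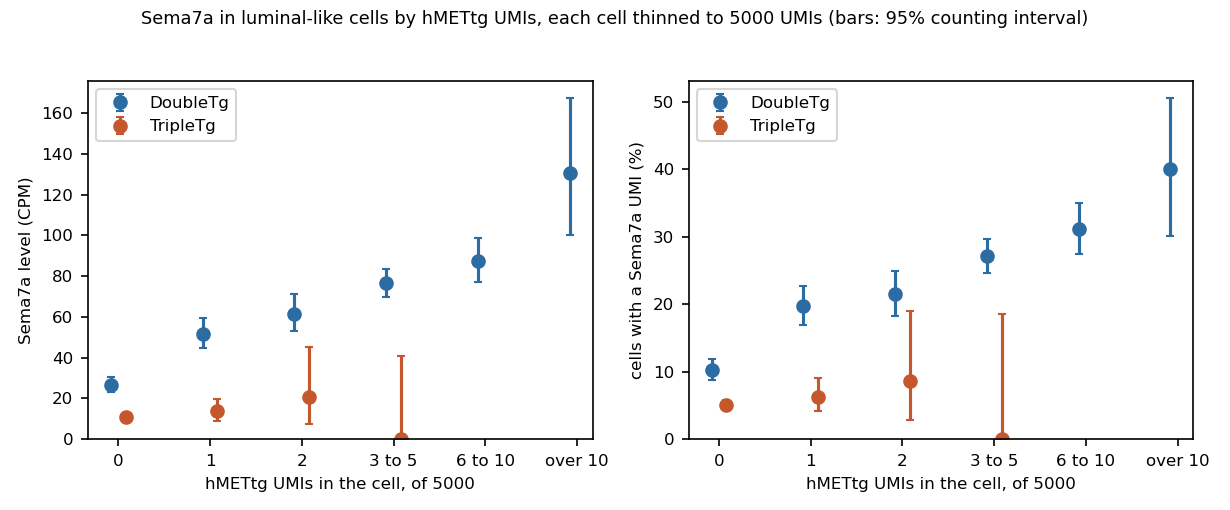
Sema7a level in CPM (left) and share of cells with a Sema7a UMI in percent (right) in luminal-like cells, by the number of hMETtg UMIs in the cell, with each cell thinned to 5000 UMIs and 95% counting intervals as bars. DoubleTg points go from 26.7 CPM without an hMETtg UMI to 131 CPM with over 10.

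Sema7a was one of 2 members past 2-fold in this comparison. Of 8602 genes tested 3.43% were past 2-fold in either direction, and of the 11 members tested Sema7a and Plxna2, at 1.06, were. With TMM scaling Plxna2 was at 0.99, and with cells thinned to 5000 UMIs the count was 1 of 12 members, with 1.84% of genes. The others ran from −0.77 for Sema6a and −0.57 for Sema3c through 0.01 for Nrp2 and 0.03 for Sema4a to 0.60 for Sema4d and 0.73 for Plxnb2. In TripleTg luminal-like cells none of 13 members was past 2-fold, and 0.429% of the 8394 genes tested were.

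The same direction was seen within clusters. In the 9 DoubleTg luminal-like clusters with at least 20 cells on each side, Sema7a was higher in the positive cells of 9, and the interval lay above 0 in 8, with log2 ratios from 0.78 to 2.58 and a median of 1.58. In TripleTg it was higher in 6 of 8 clusters, with the interval above 0 in 3 and ratios from −0.03 to 1.58. Between DoubleTg clusters the Sema7a level varied from 102 CPM (97.3–106) in the cluster led by Prr9 to 3.42 CPM in the cluster led by Cyp2f2, whose hMETtg levels were 811 and 22.1 CPM. The cluster led by Psca was at 92.4 CPM of Sema7a with 745 CPM of hMETtg, and the cluster led by Sbpl at 3.54 with 137. The TripleTg clusters spanned 4.11 CPM in the one led by Coch to 17.9 CPM in the one led by Tchh, with hMETtg between 17.1 and 39.6 CPM. Clusters of 1 library share its depth and its animal, so these are not independent points.

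**Figure D3:**
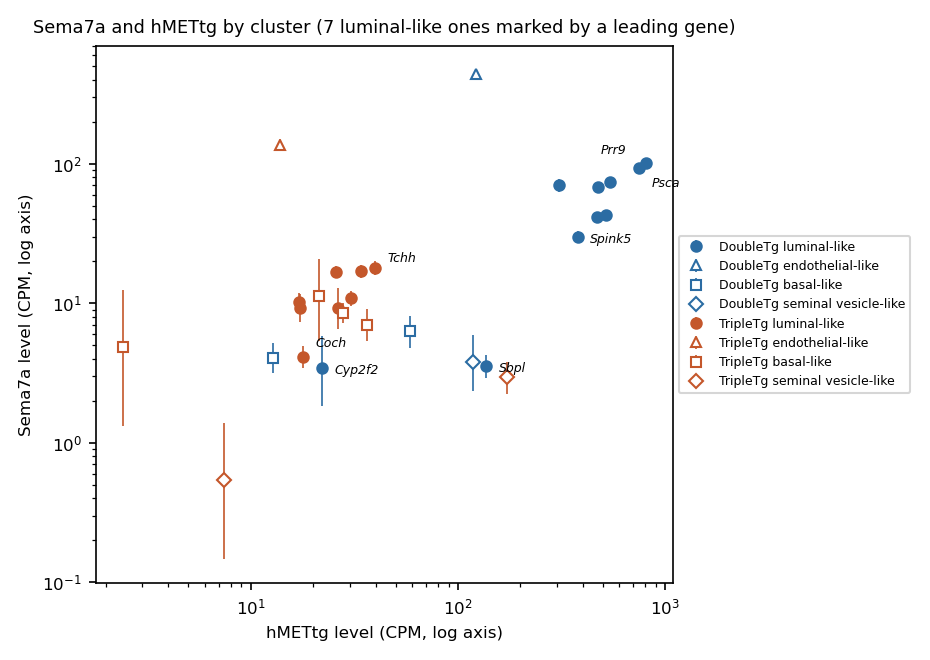
Sema7a level against hMETtg level (both CPM on log axes) in each endothelial-like, luminal-like, seminal vesicle-like and basal-like cluster, coloured by library, with 95% counting intervals. DoubleTg luminal-like clusters run from the Cyp2f2-led one, at 22.1 CPM of hMETtg, to the Prr9-led one, at 811 CPM, and the endothelial-like clusters lie above them in Sema7a.

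Other members also varied between luminal-like clusters. In DoubleTg, Sema3c ranged from 6.53 CPM in the Sbpl-led cluster to 171 CPM in the Cyp2f2-led cluster, and Plxnb2 ranged from 13.2 to 123 CPM between the same clusters. Sema6a ranged from 1.83 to 60.6 CPM, highest in the cluster led by 9530053A07Rik and Tgm4, a transglutaminase of the prostate. The Cyp2f2-led cluster was thus low in Sema7a and high in Sema3c and Plxnb2. In TripleTg, Sema5a ranged from 9.71 to 88.8 CPM and Plxnb2 from 47.2 to 196 CPM, both highest in the Tchh-led cluster, whereas Plxna2 ranged from 30.7 to 56.1 CPM. The Tchh-led cluster of 552 cells was counted as luminal-like by its epithelial and luminal markers. However, its top 10 genes include Tchh, Cnfn, Rptn and Krt73, which are known from cornified epithelium and hair follicle. Its top 10 hold no luminal marker, nor do those of the other TripleTg luminal-like clusters.

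Between the genotypes, Sema7a and Nrp2 were lower and Sema3b, Sema5a, Plxna2, Sema6a and Sema3f were higher in TripleTg luminal-like cells. Of the 9055 genes that reached 5 CPM in DoubleTg or TripleTg, 24.3% were past 2-fold, and of the 13 members tested 7 were, 5 higher and 2 lower in TripleTg. The median log2 ratio of TripleTg over DoubleTg was 0.71 over the 13 members and −0.01 over all genes tested. Sema7a stood at 54.3 CPM in DoubleTg and 11.98 CPM in TripleTg, a log2 ratio of −2.18 (−2.25 to −2.11), beside the difference in hMETtg given above, whose part in it was not tested. Nrp2 stood at 9.53 and 2.86 CPM, a ratio of −1.74 (−1.89 to −1.58). Sema3b, a secreted semaphorin known as a tumour suppressor candidate, was at 3.24 and 25.8 CPM, a ratio of 2.99 (2.87 to 3.11). These differences are larger than counting error, and the spread between animals is unknown. Sema5a was at 4.75 and 37.5 CPM, a ratio of 2.98 (2.88 to 3.08). Plxna2 was at 6.99 and 49.0 CPM, a ratio of 2.81 (2.73 to 2.89). Sema6a was at 14.998 and 41.0 CPM, a ratio of 1.45 (1.39 to 1.51), and Sema3f had a ratio of 1.12 (1.004 to 1.23). The 7 fibroblast markers summed to 39.8 CPM in DoubleTg and 165 CPM in TripleTg luminal-like cells and the 7 endothelial markers to 4.4 and 14.0 CPM, moving in the same direction as Sema5a, a fibroblast-rich gene, and as the endothelial-rich Plxna2, Sema6a and Sema3f. Their part in these ratios was not tested. Without the Tchh-led cluster the count was also 7 of 13, with 23.6% of genes, and Sema7a was at −2.29, Nrp2 at −2.20 and Sema5a at 2.67. The other 6 members lay between −0.52 for Sema4a and 0.80 for Sema3c.

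**Figure D4:**
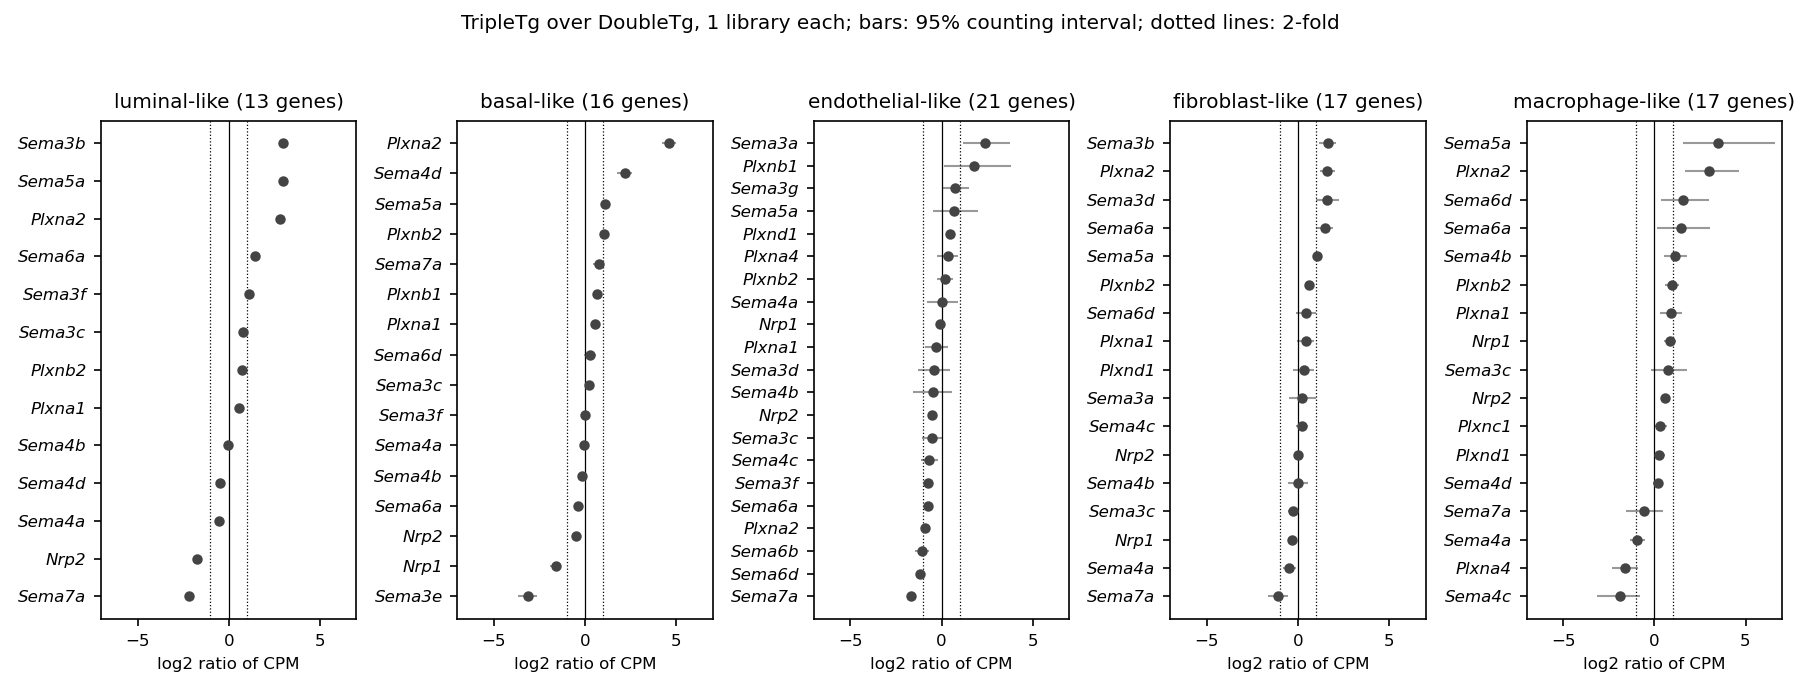
Log2 ratio of CPM, TripleTg over DoubleTg, of each member tested in 5 cell classes, with 95% counting intervals as bars and dotted lines at 2-fold. In luminal-like cells Sema7a lies lowest at −2.18 and Sema3b highest at 2.99.

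In basal-like cells, 28.3% of genes were past 2-fold and 6 of 16 members were, 4 higher and 2 lower. Plxna2 rested on 61 UMIs in DoubleTg and 1578 in TripleTg, 2.30 and 56.2 CPM, a log2 ratio of 4.61 (4.24 to 5.002). Sema4d had a ratio of 2.17 (1.77 to 2.59), Sema5a of 1.11 (0.95 to 1.27) and Plxnb2 of 1.06 (0.95 to 1.17). Sema5a was at 0.97 with cells thinned to 5000 UMIs, 0.95 at resolution 0.5 and 0.98 with the mean of CPM per cell. The members lower in TripleTg were Sema3e, with 318 UMIs in DoubleTg and 38 in TripleTg and a ratio of −3.15 (−3.68 to −2.66), and Nrp1, with 15.4 and 5.02 CPM and a ratio of −1.62 (−1.90 to −1.34). In the same cells the 7 basal markers summed to 15076 CPM in DoubleTg and 5233 CPM in TripleTg, and the 7 fibroblast markers, of a class rich in Nrp1, to 1273 and 248 CPM. The part of these shifts in the basal-like ratios was not tested. Sema7a was at 4.83 CPM in DoubleTg and 8.05 CPM in TripleTg, 0.74 (0.42 to 1.06), opposite in sign to the luminal-like value, and at 1.30 with cells thinned to 5000 UMIs. In seminal vesicle-like cells 23.4% of genes and 1 of 7 members were past 2-fold, Plxna2 at 1.15 (0.77 to 1.55), which was 0.50 with cells thinned to 5000 UMIs. The count was 4 of 10, with 32.2% of genes, at that depth and 6 of 11, with 32.6% of genes, with the mean of CPM per cell. Sema7a was at 3.82 and 2.30 CPM there, −0.73 (−1.48 to 0.07).

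In endothelial-like cells, 21.6% of genes and 5 of 21 members were past 2-fold, a share near that of all genes. Between DoubleTg and TripleTg endothelial-like cells, the 7 fibroblast markers went from 782 to 221 CPM, the 7 basal markers from 1238 to 402 CPM and the 7 macrophage markers from 11.2 to 123 CPM, beside 4936 and 5026 CPM of the endothelial markers, and their part in the ratios was not tested. The count was 8 of 21, with 26.0% of genes, at 5000 UMIs per cell and 10 of 21, with 30.3% of genes, at resolution 2. Sema7a was among the 5, with 981 UMIs in DoubleTg and 353 in TripleTg and a log2 ratio of −1.69 (−1.87 to −1.52), as were Sema6d at −1.19 (−1.38 to −0.996) and Sema6b at −1.09, or −0.98 with the mean of CPM per cell. Sema3a was higher, at 2.37 from 7 and 42 UMIs, and Plxnb1 at 1.78 from 4 and 16 UMIs. Endothelial-like Plxna2 was lower in TripleTg, at −0.92, opposite in sign to the 6 classes in which it was past 2-fold higher.

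In fibroblast-like cells, 13.9% of genes and 6 of 17 members were past 2-fold. Sema7a was lower, at −1.09 (−1.66 to −0.55), and Sema5a at 1.02 (0.91 to 1.14), Sema6a at 1.46, Sema3d at 1.61, Plxna2 at 1.61 (1.18 to 2.04) and Sema3b at 1.63 were higher. Without the 5% of cells with the highest doublet scores, Sema7a was at −0.16, Plxna2 at 0.97 and Sema5a at 0.91 in this class, so these were no longer past 2-fold and the count was 3 of 18, with 15.1% of genes, and Sema7a was at −0.23 at clustering resolution 2, −0.78 with cells thinned to 5000 UMIs and −0.81 with the mean of CPM per cell. Over all settings Sema5a ranged from 0.65 at resolution 2 to 2.79 with the members among the genes used for clustering. The 7 epithelial markers summed to 4202 CPM in DoubleTg and 5030 CPM in TripleTg fibroblast-like cells. In smooth muscle-like cells, 31.4% of genes and 8 of 19 members were past 2-fold, with Nrp2 at 2.44 (1.77 to 3.19), Sema5b at 2.16 from 2 and 13 UMIs (0.02 to 5.35), Sema3b at 1.88 from 3 and 16 UMIs (0.07 to 4.30), Plxna2 at 1.40 from 6 and 23 UMIs and Plxnb2 at 1.08 higher and Sema3f at −1.46, Sema4b at −1.35 and Sema6a at −1.33 lower. The 7 fibroblast markers summed to 801 CPM in DoubleTg and 4234 CPM in TripleTg smooth muscle-like cells, and their part in these ratios was not tested. Without the cells of highest doublet score Plxna2 was at 0.01 and Plxnb2 at 0.745 in this class, with the mean of CPM per cell Sema3b was at −0.93 and Sema6a at −0.75, and with cells thinned to 5000 UMIs Sema4b was at −0.845. Sema7a there was at −0.95 (−2.38 to 0.42), an interval that includes 0, and at 0.57 with cells thinned to 5000 UMIs.

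In macrophage-like cells, 20% of genes and 7 of 17 members were past 2-fold, 5 higher and 2 lower, and 11 of 16, with 27.5% of genes, at clustering resolution 2. The lower ones were Sema4c at −1.90 and Plxna4 at −1.59 (−2.33 to −0.87). The higher ones were Sema4b at 1.14, Sema6a at 1.47, Sema6d at 1.58, Plxna2 at 2.998 (1.70 to 4.67) from 5 and 65 UMIs, and Sema5a at 3.51 from 2 and 37 UMIs. The 7 epithelial markers summed to 777 CPM in DoubleTg and 2033 CPM in TripleTg macrophage-like cells, and luminal-like Plxna2, Sema5a and Sema6a were also higher in TripleTg. The part of epithelial RNA in these ratios was not tested. Sema6d was at 0.37 at clustering resolution 2, Sema6a was at −0.53 at resolution 0.5 and 0.71 without the cells of highest doublet score, and Sema4b was between 0.56 and 0.91 at resolution 0.5, at 5000 UMIs per cell, with TMM scaling and with the mean of CPM per cell. Sema7a was at −0.54 (−1.56 to 0.49), and at −2.02 at resolution 0.5. Over the 7 classes compared, Plxna2 was past 2-fold higher in 6, Sema5a in 4 and Sema3b in 3. Sema6a was past 2-fold higher in 3 and lower in 1, and Sema7a was past 2-fold lower in 3. The settings that end a call are given above for each class. These comparisons share the same pair of libraries, so they are not independent of each other.

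**Figure D5:**
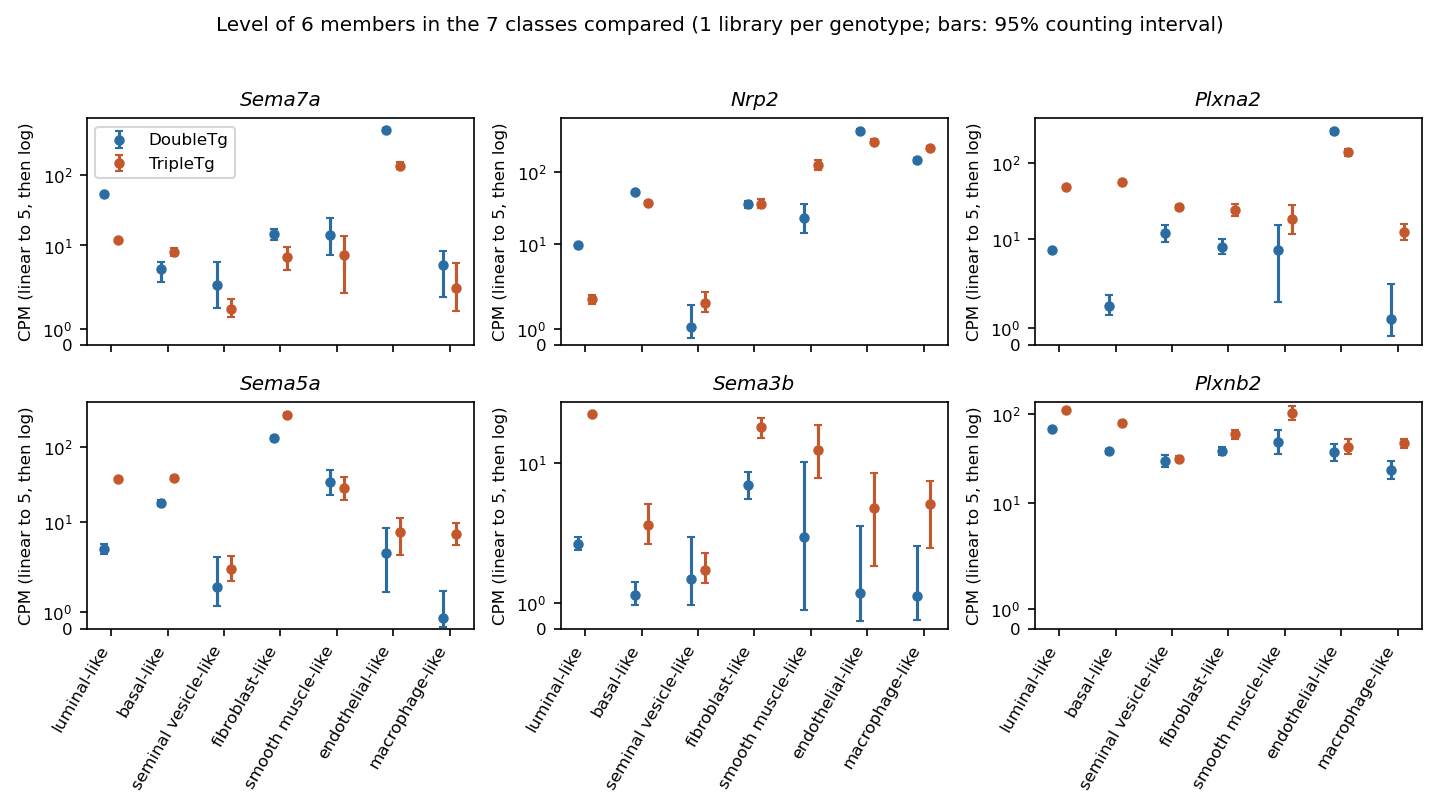
Level in CPM of 6 members, chosen after their values were seen, in the 7 classes compared, with 95% counting intervals as bars, on an axis that is linear to 5 CPM and logarithmic above. Plxna2 stands higher in TripleTg in 6 classes and lower in endothelial-like cells, and the Sema7a difference is clear of counting error in luminal-like, endothelial-like and fibroblast-like cells, lower in TripleTg, and in basal-like cells, higher in TripleTg.

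A list of 32 genes for partners and signal transducers of the family was counted in the same way. In luminal-like cells 5 of 16 tested were past 2-fold, 3 higher and 2 lower in TripleTg, against 24.3% of all genes. L1cam, an adhesion molecule that joins Nrp1 in the Sema3a receptor, had a log2 ratio of 2.32, the VEGF receptor Flt1 of 2.07 and Mical3, a monooxygenase of the family that acts downstream of plexins, of 1.68. The adhesion molecule Chl1 was at −1.05. Met, the receptor kinase that associates with B plexins, was at −1.15, although reads of mouse Met and of hMETtg may not have been fully separated. Past 2-fold in the other classes were 8 of 21 in basal-like cells (28.3% of all genes), 3 of 14 in seminal vesicle-like (23.4%), 6 of 25 in fibroblast-like (13.9%), 9 of 24 in smooth muscle-like (31.4%), 9 of 24 in endothelial-like (21.6%) and 6 of 18 in macrophage-like cells (20%). Between the genotypes, the share of the list lay above that of all genes except in seminal vesicle-like cells. Each count rests on few genes, and nothing is read from them. By hMETtg, 1 of 15 was in DoubleTg luminal-like cells (3.43% of all genes), Met at 1.83, and 0 of 15 in TripleTg (0.429%).

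Over the 25 DoubleTg clusters, the genes whose log2(CPM + 1) was most like that of Sema7a among 13311 genes were Nostrin (Pearson r = 0.85), Podxl (0.82), St8sia6 (0.75), P2ry2 (0.75) and Vapb (0.75). Over the 27 TripleTg clusters the values of these genes were 0.65, 0.65, 0.48, 0.05 and 0.69. Nostrin binds endothelial nitric oxide synthase and Podxl is a sialomucin of endothelium and podocytes, and the clusters share a library, so the correlations are descriptions.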

How the data were processed

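Single-cell RNA-seq (10x Genomics, 3′ chemistry) of 1 DoubleTg and 1 TripleTg library of prostate tissue with tumour lesions was analysed, each library being its own group. The deposited matrices hold raw UMI counts per gene and cell, which the authors made with Cell Ranger (6.0.2 per the submitters' processing notes, 6.1.1 in the header of the DoubleTg matrix) from reads aligned to mm10 with the human transgene sequences added. They total 302424122 UMIs in DoubleTg and 229655259 in TripleTg. Cells were kept with more than 200 but fewer than 7000 genes and less than 15% of UMIs from mitochondria. The TripleTg matrix already met these limits, and the DoubleTg matrix gave more kept cells than the study's methods state. Doublets were scored with Scrublet, which called 266 DoubleTg and 0 TripleTg cells, too few to be relied on in TripleTg, and none were removed.

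Clusters were made separately for the libraries in scanpy 1.11.5 (counts per 10000, 2000 variable genes without the members, 20 components, 15 neighbours, Leiden resolution 1), which gave 25 and 27 clusters. A cluster was epithelial when epithelial markers were present in a mean of 0.8 of cells or more. Other clusters, and seminal vesicle-like ones, needed a mean log2 fold of at least 2 over the other cells, with at least 3 markers raised. Basal-like clusters needed a fold of 1.5 and basal markers in a mean of 0.55 of cells. Luminal-like clusters needed a higher mean share for luminal than for basal markers, and 3 luminal markers in at least 0.5 of cells. Clusters could stay unnamed for low depth, too few or mixed markers, or leading genes of another class. These thresholds were set after the clusters had been seen, and 1447 DoubleTg and 1313 TripleTg cells stayed unnamed. UMIs were summed per class and given as CPM. The 95% intervals are exact Poisson for CPM, Clopper-Pearson for shares and conditional binomial for log2 ratios. A gene was compared where 1 of the groups reached 5 CPM, in classes of at least 50 cells in both libraries. A group with 0 UMIs was set to 3 counts. edgeR 4.0.16 served for the TMM alternative to scaling by total counts only. The code for ratios and intervals was tested on simulated data.

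Every member was accounted for, and named for classes where it had at least 5 CPM and 10 UMIs, with further levels of this kind only in the plot of levels, and for classes where it was past 2-fold. Sema7a ratios were given in each class compared. Partner genes were named where past 2-fold in luminal-like cells, and the 5 genes most like Sema7a over clusters were named. The members, gene lists and marker lists were chosen with earlier results of these data known. Alternatives were thinning to 5000 UMIs, other resolutions, filters, scalings, hMETtg limits and doublet treatments. Gene positions are from GENCODE mouse release 21, and promoters are from RefSeq.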

Additional observations from a re-analysis of the deposited data

How the results depend on the processing

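No paired analysis was possible because there was 1 library per genotype. Of 312 values of the 43 named genotype ratios under other settings, 309 kept their side of 0 and 3 did not: Sema7a in smooth muscle-like cells at 5000 UMIs per cell (0.57), Sema6a in macrophage-like cells at resolution 0.5 (−0.53) and Sema3b in smooth muscle-like cells with the mean of CPM per cell (−0.93). At 5000 UMIs per cell the Sema7a ratio by hMETtg was 1.42 with shares of 25.5% and 10.3%, 1 of 12 members was past 2-fold by hMETtg (1.84% of all genes), the luminal-like median was 0.61, and 4 of 10 seminal vesicle-like (32.2% of all genes) and 8 of 21 endothelial-like members (26.0%) were past 2-fold. With the mean of CPM per cell these were 2.12, 1 of 12 members by hMETtg (3.12%), 0.59 and 6 of 11 seminal vesicle-like members (32.6%). With TMM scaling 1 of 11 members was past 2-fold by hMETtg (3.32%) and the luminal-like median was 0.65. Within clusters the Sema7a ratio was 1.75 with 1 of 11 members past 2-fold (1.10%). With hMETtg-positive cells defined by at least 3 UMIs the Sema7a share was 65.8%. At resolution 2, 10 of 21 endothelial-like (30.3%) and 11 of 16 macrophage-like members (27.5%) were past 2-fold. With a limit of 1 CPM 6 of 18 seminal vesicle-like (29.8%) and 11 of 21 macrophage-like members (26.2%) were. With every gene that had a UMI the counts were 8 of 29 by hMETtg (29.4%), 17 of 31 luminal-like (33.4%), 12 of 31 basal-like (29.4%), 15 of 29 seminal vesicle-like (45.7%), 11 of 30 fibroblast-like (16.7%) and 11 of 27 macrophage-like (18.5%). Without the Tchh-led TripleTg cluster the luminal-like median was 0.55. Without the 5% of cells with the highest doublet scores, 3 of 18 fibroblast-like members (15.1%) were past 2-fold. That setting and leaving out the Tchh-led cluster were chosen after seeing the data. The cause of these shifts was not tested, except that lower limits add genes with few UMIs. Removing the Scrublet calls was not run between genotypes, since there were 0 in TripleTg. With 1 library per genotype the spread between animals is unknown.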
